A study of Homo sapiens with 2 samples.

Results

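Transcripts of the unfolded protein response and the integrated stress response were examined in the cell line SU-DHL-1, derived from an anaplastic large cell lymphoma (ALCL), after siRNA treatment aimed at the homeobox gene HLX (siHLX) or with a control siRNA (siCTR). The HG-U133 Plus 2.0 array held 19775 genes that had a probe set of their own. The 48 genes were a list of sensors, transcription factors and target genes, chosen with earlier results of these data known. They were split by role into 23 genes of the ATF4 arm and amino acid synthesis, 18 genes of the XBP1/ATF6 arm with protein folding, and 7 genes of ER-associated degradation. Of these, 47 had at least 1 probe set of their own, and all 47 lay above the level threshold of 4.865 log2 units, the median of all probe sets. SYVN1, the ubiquitin ligase of ER-associated degradation, was represented only by a probe set annotated to several genes and received no value.

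Misfolded protein in the endoplasmic reticulum (ER) activates the sensors EIF2AK3 (PERK), ERN1 (IRE1) and ATF6. PERK and the related kinases EIF2AK1 and EIF2AK4 phosphorylate the initiation factor eIF2 alpha, which slows general translation and favours translation of ATF4, an activator of genes for amino acid synthesis and of the factor DDIT3 (CHOP). IRE1 splices the mRNA of XBP1, and ATF6 is cleaved to a nuclear factor; both raise chaperones and genes for the removal of misfolded proteins. Phosphorylation, splicing and cleavage were not measured by the arrays, which report transcript levels only.

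There was 1 array per treatment, so replicate error is unknown and no test was possible; each difference is log2 siHLX minus log2 siCTR between these 2 arrays. The siHLX array held RNA of SU-DHL-1 cells electroporated with the siRNA against HLX, and the siCTR array RNA of the same line given a non-targeting siRNA. SU-DHL-1 is a single line carrying NPM1-ALK, and the ALCL markers TNFRSF8, ALK, GZMB, PRF1, IL2RA and BATF3 all lay above the threshold, between 9.79 and 13.41 with siHLX and between 9.92 and 13.39 with siCTR. Among 9 markers of other cell types, 4 of the 8 with a probe set of their own lay above the threshold (CD79A, CSF1R, HBB and COL1A1), MS4A1, CD14, LYZ and EPCAM lay below it, and the summed intensity of the list was 471 with siHLX and 486 with siCTR. The target HLX read 7.70 with siHLX and 8.15 with siCTR, a difference of -0.45, which is -0.16 after scaling to the poly-A spike controls. These controls, added before labelling, averaged 7.04 with siHLX and 7.32 with siCTR and were lower with siHLX on 23 of 24 probe sets (mean difference -0.29), and their part in the differences below was not tested. Fewer cells expressing a gene and less transcript per cell cannot be told apart in these RNA pools.

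Differences of the stress response genes were small. On their brightest probe sets, 29 of 47 genes (61.7%) were lower with siHLX, beside 50.1% of all 12135 genes above the threshold, and 17 (36.2%) were higher, beside 47.4%. The median was -0.06, against -0.01 for all genes. This excess was not seen with all probe sets of each gene averaged, those below the threshold included. Then 24 of 47 members were lower, beside 51.4% of all genes, and the median was -0.01 for members and all genes alike. Only CHAC1 was apart by 1.5-fold, on the lower side, where 2.55% of all genes lay, and 0 members were 1.5-fold higher, beside 2.5%. By arm the shares were as follows. In the ATF4 arm 11 genes were lower, 11 higher and ATF5 equal (median 0.00). In the XBP1/ATF6 arm 14 of 18 were lower (77.8%, median -0.09), and in ER-associated degradation 4 of 6 (66.7%, median -0.09). Averaging all probe sets gave 11 of 18 lower (median -0.04) in the XBP1/ATF6 arm and 3 of 6 (median -0.01) in ER-associated degradation. Probe sets ending in _s_at or _x_at can match several transcripts. Without them 22 of 37 members were lower (median -0.05), beside 49.8% of all genes. In that setting ER-associated degradation had 2 of 4 lower and a median of 0.01. With the spike controls set equal, which moves the median of all genes to 0.28, only CHAC1, HYOU1 and DNAJB9 of all 47 genes stayed below 0, so each direction given here is relative to the bulk of genes.

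**Figure D1:**
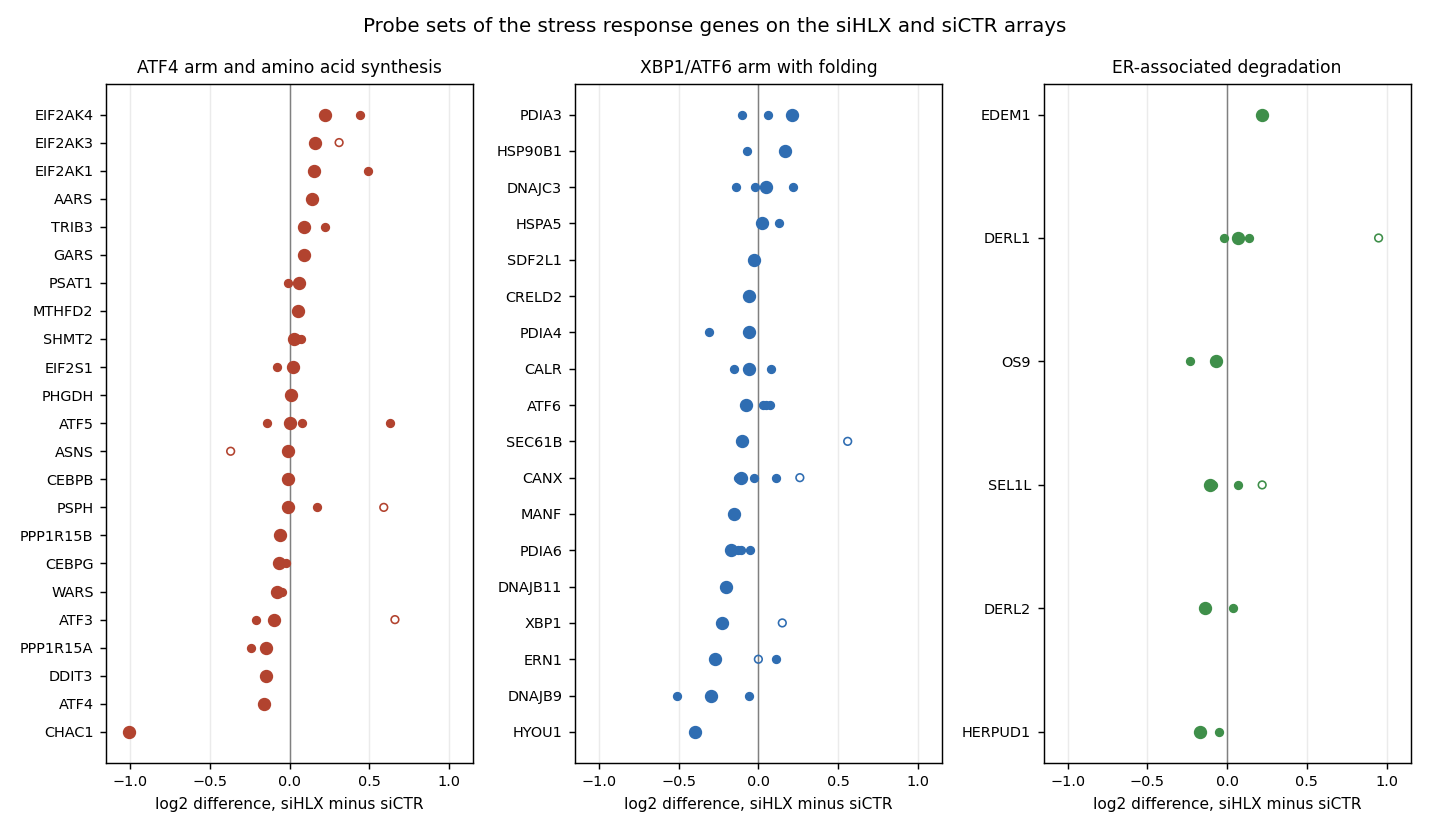
Difference in log2 intensity, siHLX minus siCTR (x axis), for each probe set of 47 genes (rows, sorted by their brightest probe set) in 3 panels by arm; large circles are the brightest probe set of a gene, small circles the others, and open circles lie below the level threshold. CHAC1 stands alone at -1.01, and 14 of 18 large circles of the XBP1/ATF6 arm lie left of 0.

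Several probe sets of 1 gene read the same RNA and are not replicates. The members had 103 probe sets. Among those above the threshold, the share that was lower lay nearer to that of the whole data than in the counts of genes. Of the 93 above the threshold 53 were lower (57.0%), beside 49.9% of all named probe sets above it, with 18 of 40 in the ATF4 arm, 27 of 40 in the XBP1/ATF6 arm and 8 of 13 in ER-associated degradation. Among the 10 dim probe sets below the threshold 8 were higher, 1 lower and 1 equal, and these were not used in the counts of genes. Of all 18638 named probe sets below the threshold 8554 were higher and 9098 lower. In the 29 members where 2 or more probe sets passed the threshold, 9 were lower on all of them and 6 higher on all of them, together 51.7%, beside 37.1% of the 5869 such genes in the whole data. Within genes, probe sets scattered with a pooled SD of 0.15 for the members and 0.27 for all genes. The members were brighter than all genes above the threshold (median level 9.42 against 7.84), and differences scatter less among brighter genes. Neither comparison was matched for level.

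The 3 eIF2 kinases among the members were on the higher side. EIF2AK4, the sensor GCN2 that is activated by uncharged tRNA, read 7.80 with siHLX and 7.58 with siCTR (0.22), and its dimmer probe set read 5.31 with siHLX and 4.87 with siCTR (0.44). EIF2AK3, the ER-resident kinase PERK, read 8.13 with siHLX and 7.97 with siCTR (0.16), and its other probe set lay below the threshold with 0.31. EIF2AK1, the heme-regulated kinase HRI, read 10.41 with siHLX and 10.26 with siCTR (0.15), and its dimmer probe set read 6.23 with siHLX and 5.74 with siCTR (0.49). All 6 probe sets of these 3 kinases were thus higher with siHLX. EIF2AK2 (PKR), an eIF2 kinase that was not a member, read 9.58 with siHLX and 9.44 with siCTR (0.14). Its probe sets went both ways, from -0.12 to 0.42. Such readings were not rare among probe sets of like level. Of the named probe sets within 0.5 log2 units, 14.6% lay as high as EIF2AK4, 20.3% as high as EIF2AK3 and 10.5% as high as EIF2AK1. EIF2S1, the alpha subunit of eIF2 and the shared substrate, read 11.99 with siHLX and 11.97 with siCTR (0.02), with 0.02 and -0.08 on its further probe sets.

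The transcription factors of this arm were lower or equal. ATF4, the central activator, read 12.11 with siHLX and 12.27 with siCTR on its only probe set (-0.16), and 6.63% of 377 neighbours in level lay as low. DDIT3, the pro-apoptotic factor CHOP, read 8.38 with siHLX and 8.53 with siCTR on its only probe set (-0.15), where 21.2% of like-level probe sets lay as low. ATF3, a stress-induced repressor, read 9.14 with siHLX and 9.24 with siCTR (-0.10). Its probe sets did not share a direction, since a further one, above the threshold, had -0.21 and a dim one 0.66. ATF5, a factor that is translationally controlled like ATF4, read 9.22 on both arrays and ranged from -0.14 to 0.63 over 4 probe sets. CEBPB, a leucine zipper partner of ATF4, read 13.05 with siHLX and 13.06 with siCTR (-0.01). CEBPG, a partner of the same family, read 8.99 with siHLX and 9.06 with siCTR (-0.07), with -0.02 on its other probe set. PPP1R15A (GADD34), the inducible subunit of the phosphatase that reverses eIF2 alpha phosphorylation, read 6.73 with siHLX and 6.88 with siCTR (-0.15) and had -0.24 on its other probe set. PPP1R15B, its constitutive counterpart, had -0.06.

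CHAC1, an enzyme that degrades glutathione and a known ATF4 target, showed the largest difference of all 47 genes. It read 5.41 with siHLX and 6.42 with siCTR, and its difference of -1.01 corresponds to 0.50 times the siCTR intensity. Among 4607 named probe sets no more than 0.5 log2 units brighter or dimmer 0.608% lay as low, and 0.387% of all genes above the threshold were at least 2-fold lower. This reading came from a single probe set at a level of 5.915, where differences scatter widely: the SD of the difference was 0.40 among genes with a level under 7, 0.19 from 7 to 10 and 0.11 above. Markers of other cell types lay near this level too. HBB read 5.99 with siHLX and 6.49 with siCTR (-0.50), and CSF1R 6.23 with siHLX and 5.79 with siCTR (0.44). A level above the threshold therefore does not by itself show expression of CHAC1. No other member of the ATF4 arm came near CHAC1 on its brightest probe set. Among the further genes described below, ALDH1L2 had -1.05 on its brightest probe set, which lay below the threshold, and up to 0.16 on the others. TRIB3, a pseudokinase that restrains ATF4 and CHOP, read 8.15 with siHLX and 8.06 with siCTR (0.09), with 0.22 on its dimmer probe set, and ASNS, the asparagine synthetase, read 10.17 with siHLX and 10.18 with siCTR (-0.01), with -0.37 on a probe set below the threshold.

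Enzymes of serine and folate metabolism and aminoacyl-tRNA synthetases, which supply translation under ATF4 control, ranged from -0.08 to 0.14 on their brightest probe sets. PHGDH, PSAT1 and PSPH, the enzymes of serine synthesis, had 0.01, 0.06 and -0.01, and the mitochondrial folate enzymes SHMT2 and MTHFD2 had 0.03 and 0.05. The further probe sets of PSPH were higher, with 0.17 and, below the threshold, 0.59, whereas those of PSAT1, SHMT2 and MTHFD2 ranged from -0.01 to 0.07. AARS, the alanyl-tRNA synthetase, read 9.36 with siHLX and 9.22 with siCTR (0.14), GARS for glycine had 0.09, and WARS for tryptophan had -0.08 and -0.05 on its probe sets.

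ATF4 binds together with C/EBP partners to a composite element with the core TGATGNAA. RefSeq promoter windows of assembly GRCh38.p14, from 250 bases before to 50 bases after each annotated start, were available for 43 of the 48 genes, and some genes had several windows. In the ATF4 arm 7 of 20 genes (35.0%) held this core on either strand, beside 4.46% of all 27305 genes in the table. Known ATF4 targets were the basis of this arm, so the share describes the choice of genes. The sites are shown to compare their flanks, each in the direction of the motif with the core in capitals.
ATF3, chr1:212565206-212565233, plus strand: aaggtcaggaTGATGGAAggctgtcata
CHAC1, chr15:40953252-40953279, minus strand: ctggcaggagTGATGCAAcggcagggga
ASNS, chr7:97872459-97872486, minus strand: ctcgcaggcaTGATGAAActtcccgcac
CEBPG, chr19:33374061-33374088, plus strand: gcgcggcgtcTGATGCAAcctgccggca
PPP1R15B, chr1:204412027-204412054, minus strand: ccgccccggcTGATGCAAcctcacgctg
AARS, chr16:70289676-70289703, plus strand: ctaacttggcTGATGCAActgcgagaaa
GARS, chr7:30594835-30594862, minus strand: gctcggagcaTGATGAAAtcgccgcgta
HERPUD1, chr16:56931956-56931983, minus strand: gggcacgggcTGATGCAAcccgccgcgt

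The core with C at its free position occurred in CHAC1, CEBPG, PPP1R15B, AARS and HERPUD1, that with A in ASNS and GARS, and that with G in ATF3. Genes of the ATF4 arm with the core had differences from -1.01 to 0.14 (median -0.06, 5 lower and 2 higher), and the 13 genes with a window but without it from -0.16 to 0.22 (median 0.01, 5 lower and 7 higher). Of all genes above the threshold 50.1% were lower and 47.4% higher. Both groups lay across 0, and CHAC1 alone sets the lower end of the first. PPP1R15A held the cAMP response element TGACGTCA, which occurred in 2.25% of all genes in the table and in no other member. The promoters of CHAC1 and ASNS are given up to the start as those of textbook ATF4 targets, with matches on either strand in capitals.
CHAC1, chr15:40953221-40953470, plus strand: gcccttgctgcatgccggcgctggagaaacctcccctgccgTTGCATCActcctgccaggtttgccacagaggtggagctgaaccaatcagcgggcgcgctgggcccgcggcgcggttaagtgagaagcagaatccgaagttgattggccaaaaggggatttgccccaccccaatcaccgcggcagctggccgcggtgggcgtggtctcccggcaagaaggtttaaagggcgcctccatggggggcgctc
ASNS, chr7:97872409-97872658, minus strand: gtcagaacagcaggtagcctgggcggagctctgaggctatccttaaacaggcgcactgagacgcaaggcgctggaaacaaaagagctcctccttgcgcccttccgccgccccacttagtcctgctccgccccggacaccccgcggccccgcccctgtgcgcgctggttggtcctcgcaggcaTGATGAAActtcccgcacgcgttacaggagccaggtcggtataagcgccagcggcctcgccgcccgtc

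The factors and sensors of the XBP1/ATF6 arm were lower on their brightest probe sets. XBP1, whose spliced mRNA encodes the active factor, read 7.91 with siHLX and 8.14 with siCTR (-0.23), and 13.0% of 3680 neighbours in level lay as low. Spliced and unspliced XBP1 mRNA are not distinguished by this value, and the other probe set, below the threshold, had 0.15. ERN1, the sensor IRE1 that performs this splicing, read 5.44 with siHLX and 5.71 with siCTR (-0.27), with 0.11 on a further probe set above the threshold and 0.00 on a dim one. ATF6 read 8.34 with siHLX and 8.42 with siCTR (-0.08), while its further probe sets had 0.07, 0.03 and 0.05. ERN1 and ATF6 thus had both directions among their probe sets above the threshold, and XBP1 had only 1 such probe set.

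HYOU1, an ER chaperone that exchanges the nucleotide of BiP, had the lowest value of the folding genes. On its only probe set, which ends in _s_at, it read 9.22 with siHLX and 9.62 with siCTR (-0.40, a ratio of 0.76). Of the 2630 named probe sets near its level 1.14% lay as low. DNAJB9 (ERdj4), a co-chaperone of BiP and an XBP1 target, read 7.97 with siHLX and 8.27 with siCTR (-0.30). It was lower on all 3 probe sets, with -0.06 and -0.51 on the others, and the brightest was matched by 6.79% of probe sets of like level. DNAJB11 (ERdj3), a co-chaperone that binds unfolded clients, read 10.89 with siHLX and 11.09 with siCTR (-0.20), where 4.03% lay as low. Further genes below 0 were PDIA6, a disulfide isomerase lower on all 4 probe sets from -0.17 to -0.05, and MANF, a secreted ER stress protein, which read 10.98 with siHLX and 11.13 with siCTR (-0.15). CANX and CALR, the lectin chaperones of glycoproteins, had -0.11 and -0.06 on their brightest probe sets and ranged over all probe sets from -0.13 to 0.26 and from -0.15 to 0.08. SEC61B, a subunit of the translocon, had -0.10, and 0.56 on a probe set below the threshold. PDIA4 had -0.06 and -0.31, and CRELD2 and SDF2L1, which assist ER folding, had -0.06 and -0.03.

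BiP and 3 further genes of the arm lay on the higher side. HSPA5, the chaperone BiP itself and the standard marker of ER stress, read 12.01 with siHLX and 11.99 with siCTR (0.02), and its other probe set read 7.15 with siHLX and 7.02 with siCTR (0.13). HSP90B1 (GRP94), the ER member of the HSP90 family, read 11.08 with siHLX and 10.91 with siCTR (0.17), with -0.07 on its dimmer probe set. Both HSP90B1 probe sets carry the suffix of possible cross-hybridisation, and further ones annotated to several genes were not used. PDIA3, the isomerase that works with calnexin and calreticulin, was the highest of the arm and read 11.12 with siHLX and 10.91 with siCTR (0.21). Of its neighbours in level 3.37% lay as high, and its further probe sets had 0.06 and -0.10. DNAJC3, an inhibitor of PERK signalling and a BiP co-chaperone, read 8.92 with siHLX and 8.87 with siCTR (0.05) and ranged from -0.14 to 0.22 over 4 probe sets.

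**Figure D2:**
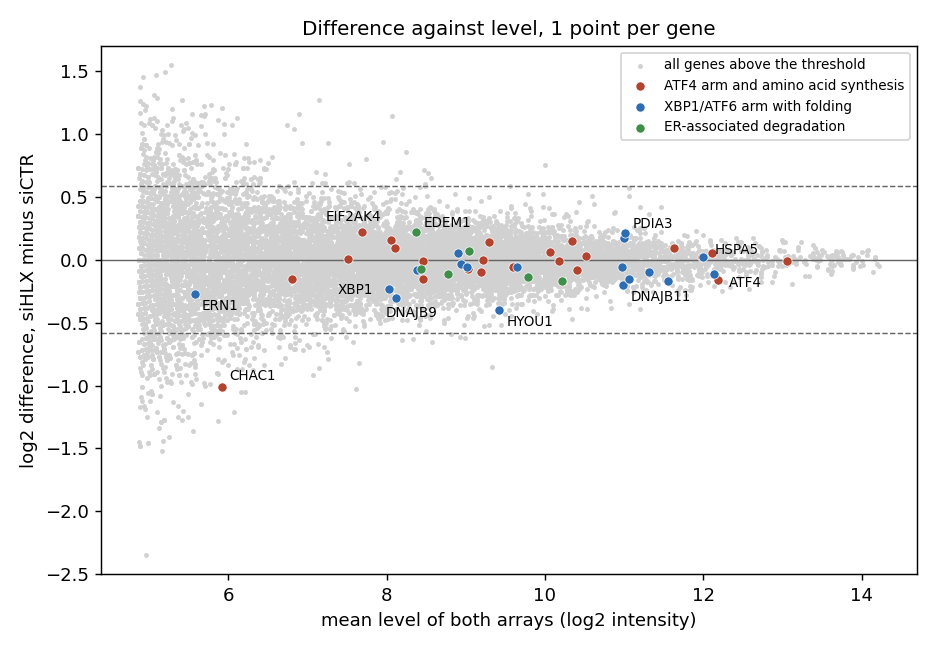
Difference in log2 intensity, siHLX minus siCTR (y axis), plotted by level (x axis, mean log2 intensity), with 1 point per gene for its brightest probe set; grey points are all 12135 genes above the threshold, coloured points the 47 members by arm, and dashed lines mark 1.5-fold. CHAC1 lies outside the dashed lines at a dim level, and HYOU1 at -0.40 lies at the lower edge of genes of its level.

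XBP1 and ATF6 act on the ER stress element, which consists of CCAAT and CCACG separated by 9 bases. In the XBP1/ATF6 arm 7 of 17 genes with a promoter window held this element (41.2%), beside 25 of all 27305 genes in the table (0.0916%), and 0 of 20 genes of the ATF4 arm. The arm was drawn up from known targets of these factors, so its share describes the choice of genes. The sites are shown in the direction of the motif, because only the 9 bases in the middle and the flanks vary, and the element is in capitals.
XBP1, chr22:28800598-28800626, minus strand: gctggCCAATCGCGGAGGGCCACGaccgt
HSPA5, chr9:125241386-125241414, minus strand: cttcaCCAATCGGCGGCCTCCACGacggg
HSP90B1, chr12:103930211-103930239, plus strand: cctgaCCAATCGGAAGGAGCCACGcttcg
HSP90B1, chr12:103930316-103930344, minus strand: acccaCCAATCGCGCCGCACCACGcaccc
CALR, chr19:12938379-12938407, minus strand: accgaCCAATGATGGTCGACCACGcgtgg
CANX, chr5:179698773-179698801, plus strand: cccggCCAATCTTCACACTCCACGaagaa
PDIA6, chr2:10812848-10812876, minus strand: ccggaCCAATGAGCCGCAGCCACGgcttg
CRELD2, chr22:49918549-49918577, minus strand: atggcCCAATCCGAGTTCGCCACGagagg

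The second form of the element, ATTGG and CCACG with 1 base between them, occurred in HYOU1, SDF2L1 and HERPUD1, beside 0.0696% of all genes in the table.
HYOU1, chr11:119057371-119057399, plus strand: cggcctgggATTGGACCACGtcacggggc
HYOU1, chr11:119057265-119057293, plus strand: cgcgtactcATTGGACCACGtcccaggcc
SDF2L1, chr22:21642105-21642133, minus strand: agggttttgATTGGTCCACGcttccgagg
HERPUD1, chr16:56932016-56932044, plus strand: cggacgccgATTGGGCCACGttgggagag

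On their brightest probe sets most genes of the folding arm were lower, with or without either form, beside 50.1% of all genes. With all probe sets averaged, 11 of 18 genes of the arm were lower (median -0.04). The 9 genes with a form had a median of -0.06 (7 lower, 2 higher, from -0.40 to 0.17), and the 8 genes with a window but without it had a median of -0.12 (7 lower, 1 higher, from -0.30 to 0.05). HSPA5 and HYOU1 both held such an element and lay at 0.02 and -0.40. In HYOU1 the upstream copy of the second form overlapped the element TGACGTGG of the unfolded protein response, which 0.927% of all genes in the table held. No match in these windows says only that the letters are not there. The promoters up to the start are given for the factor gene XBP1, for HSPA5 and for HYOU1, with matches on either strand in capitals.
XBP1, chr22:28800570-28800819, minus strand: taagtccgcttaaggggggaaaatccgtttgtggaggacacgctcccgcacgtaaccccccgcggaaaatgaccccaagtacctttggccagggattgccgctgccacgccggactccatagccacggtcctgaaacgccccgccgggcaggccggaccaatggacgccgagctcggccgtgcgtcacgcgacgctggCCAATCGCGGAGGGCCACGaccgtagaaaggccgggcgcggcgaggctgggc
HSPA5, chr9:125241344-125241593, minus strand: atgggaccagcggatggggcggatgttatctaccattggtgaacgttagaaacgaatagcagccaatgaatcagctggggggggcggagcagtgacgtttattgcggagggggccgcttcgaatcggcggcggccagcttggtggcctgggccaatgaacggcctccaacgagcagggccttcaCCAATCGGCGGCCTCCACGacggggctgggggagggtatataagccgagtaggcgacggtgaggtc
HYOU1, chr11:119057206-119057455, minus strand: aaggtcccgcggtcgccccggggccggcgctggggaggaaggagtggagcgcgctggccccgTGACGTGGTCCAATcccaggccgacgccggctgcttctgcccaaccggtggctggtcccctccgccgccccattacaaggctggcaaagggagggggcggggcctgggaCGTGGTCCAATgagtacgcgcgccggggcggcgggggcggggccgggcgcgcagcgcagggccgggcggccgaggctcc

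**Figure D3:**
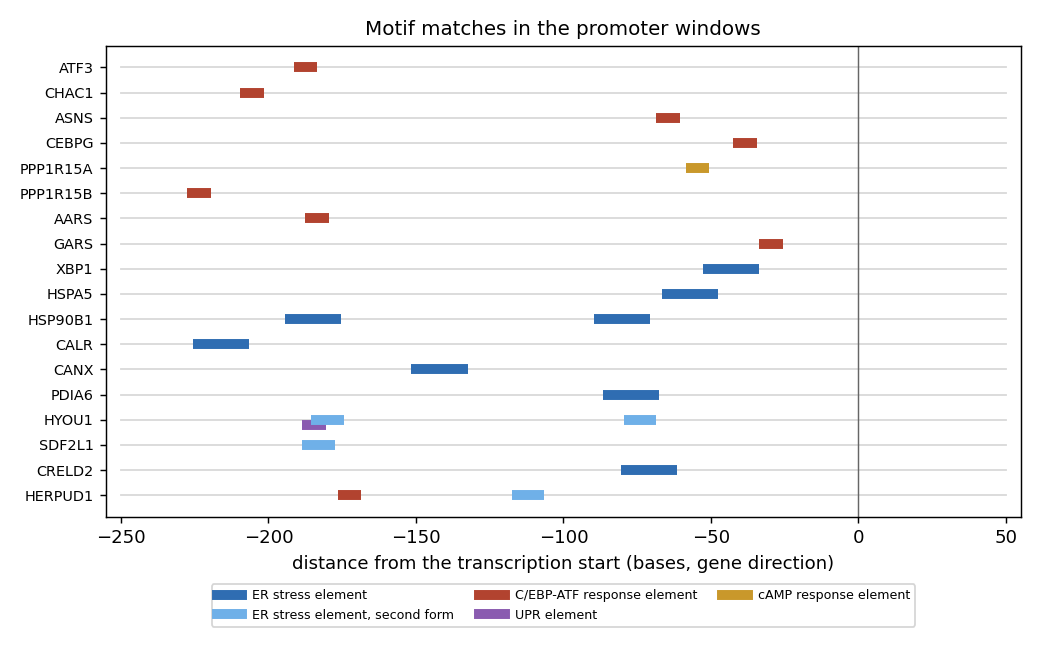
Position of each motif match (bars) relative to the annotated start (x axis, bases in the direction of the gene) in the promoter windows of 18 members (rows); colours mark the motif, and a site present in several windows of a gene is drawn once. The ER stress elements lie in the folding genes, the C/EBP-ATF cores in the ATF4 arm, and HERPUD1 holds both kinds.

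In ER-associated degradation, in which misfolded proteins are returned to the cytosol and destroyed by the proteasome, the differences went both ways. HERPUD1, a scaffold of the ligase complex, read 10.13 with siHLX and 10.30 with siCTR (-0.17), with -0.05 on its dimmer probe set. DERL2, a derlin of the exit channel, read 9.72 with siHLX and 9.86 with siCTR (-0.14), with 0.04 on its other probe set. SEL1L, the partner of the SYVN1 ligase, had -0.11, 0.07 and -0.09 on its probe sets above the threshold, and the lectin OS9 had -0.07 and -0.23. OS9 and HERPUD1 were lower on all their probe sets, whereas DERL2 and SEL1L were not. EDEM1, which directs mannose-trimmed glycoproteins to degradation, was the highest and read 8.48 with siHLX and 8.26 with siCTR on its only probe set (0.22), where 10.9% of like-level probe sets lay as high. DERL1, the other derlin, read 9.08 with siHLX and 9.01 with siCTR (0.07), and 0.14, -0.02 and, below the threshold, 0.95 on the others. HERPUD1 was the only member that held both the second form of the ER stress element and the ATF4 core, and its promoter is given for that reason with both in capitals.
HERPUD1, chr16:56931892-56932141, plus strand: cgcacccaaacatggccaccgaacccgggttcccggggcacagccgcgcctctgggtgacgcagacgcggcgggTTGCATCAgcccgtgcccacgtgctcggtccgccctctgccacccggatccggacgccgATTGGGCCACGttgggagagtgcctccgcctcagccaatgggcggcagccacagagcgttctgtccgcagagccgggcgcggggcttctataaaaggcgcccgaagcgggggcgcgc

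Further genes of the same processes, which were not among the 48, lay about evenly on both sides of 0. In folding, translocation and glycosylation 20 of 47 genes above the threshold were lower and 24 higher (median 0.01), beside 14 of 18 lower among the members (median -0.09), and with all probe sets averaged the medians were -0.04 for the members and 0.02 for the further genes. SEC24D, a subunit of vesicle coats, was the lowest and read 6.85 with siHLX and 7.24 with siCTR (-0.39), with up to 0.62 on its probe sets below the threshold, followed by SEC61A1, the pore of the translocon, which read 9.69 with siHLX and 10.02 with siCTR (-0.33) but 0.03 on its other probe set. The highest were CREB3L2, an ER-bound transcription factor that read 7.32 with siHLX and 6.82 with siCTR (0.50) and had down to -0.52 below the threshold, and TXNDC11, which read 6.86 with siHLX and 6.39 with siCTR (0.47). In amino acid metabolism, tRNA charging and eIF2 function 12 of 25 were lower and 11 higher (median 0.00). EIF2B5, the catalytic subunit of the exchange factor eIF2B, had -0.29 and SESN2, a stress-induced inhibitor of mTORC1, -0.18. DDIT4, likewise an inhibitor of mTORC1, read 8.78 with siHLX and 8.18 with siCTR (0.60). It was the only further gene above the threshold apart by 1.5-fold, and PYCR1, an enzyme of proline synthesis, had 0.36. Below the threshold ALDH1L2 read 3.64 with siHLX and 4.69 with siCTR (-1.05), and GDF15 had -0.61. Their further probe sets reached 0.16 and 0.15, and the highest gene below the threshold was NUPR1 with 0.41. In ER-associated degradation 14 of 28 were lower and 13 higher (median -0.01), from DERL3 and TMUB1 at -0.23 to ERLIN2 at 0.23 and the ubiquitin-conjugating enzyme gene UBE2J1 at 0.30. Apart from TMUB1, which had a single probe set, these genes had probe sets above the threshold in both directions, up to 0.58 in DERL3 and down to -0.35 in ERLIN2 and -0.43 in UBE2J1. The difference between members and further genes was not tested, and both lists were chosen with earlier results of these data known.

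**Figure D4:**
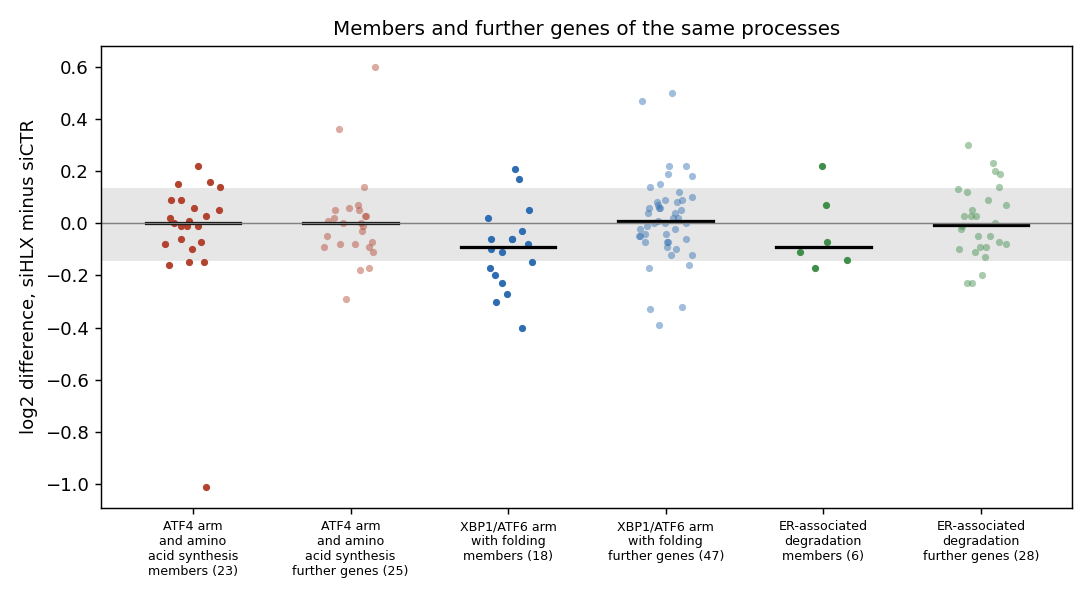
Difference in log2 intensity, siHLX minus siCTR (y axis), for the members and for further genes of the same processes (x axis, number of genes above the threshold in parentheses); points are genes on their brightest probe set, black bars are medians, and the grey band holds the middle 50% of all genes, from -0.14 to 0.13. The members of the XBP1/ATF6 arm have a median of -0.09, and the further folding genes one of 0.01.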

How the data were processed

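Expression was measured on 2 HG-U133 Plus 2.0 arrays, and groups were taken from the treatment in the sample labels. The authors deposited log2 intensities after RMA, which includes quantile normalisation, with limma and affy per the submitters' processing notes (their versions are not given in the sources used here). Once sorted, the columns were apart by at most 0.06, so a shift of most transcripts at once is hidden. The ratio to the sample mean described in the methods was not visible in the values.

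Of 54613 probe sets that were not controls, 41091 had 1 gene in the platform annotation, 1801 several and 11721 none. WARS, AARS and GARS were matched under older and newer symbols. A gene was represented by its brightest probe set, and lists were described by counts and medians, computed with Python 3.11.15 and pandas 2.3.3. The computation was checked on shuffled differences with known shifts added and on motifs planted in random sequence. Motif letters were searched on both strands of the RefSeq windows. No promoter of DDIT3 is printed, since its windows held no motif, and that of HYOU1 was added after its value was seen. Members, lists and groupings were chosen with earlier results of these data known. Named were all members, with values on both arrays for sensors, factors, HSPA5, CHAC1, ASNS and the 4 most negative and 4 most positive genes of each arm (2 and 2 in ER-associated degradation), and the 2 most negative and 2 most positive further genes of each process. EIF2AK2 was named in addition, beside the eIF2 kinases among the members. Alternatives were median centring, poly-A scaling, lowess (fraction 0.2), renewed quantile normalisation, averaging all probe sets of a gene, leaving out those ending in _s_at or _x_at, no threshold, a threshold at the 75th percentile and a 2-fold limit.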

Additional observations from a re-analysis of the deposited data

How the results depend on the processing

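With 1 array per treatment, neither replicate error nor a left-out replicate could be examined. No paired analysis was possible because the groups held 1 array each. Median centring, lowess, renewed quantile normalisation and no level threshold left all 13 summary values within their limits, which were the SD between probe sets of a gene over the square root of the number of genes for medians and 1.5 times for counts. Median centring could change nothing, because both arrays already had a median of 4.87. Removing the threshold could not change values of members, because all 47 lay above it. The sorted columns were apart by at most 0.06, which left renewed quantile normalisation little to change. The median of the XBP1/ATF6 arm minus that of all genes ranged from -0.09 to -0.03 over all settings, and that of ER-associated degradation from -0.09 to 0.01. Scaling to equal poly-A spike controls adds the same amount to every gene by its construction. It gave medians of 0.289 for the ATF4 arm, 0.199 for the XBP1/ATF6 arm, 0.199 for ER-associated degradation and 0.229 for all members, with 1, 2, 0 and 3 genes lower, beside 0.279 for all genes. The further genes then had 0.289, 0.299 and 0.284. With all probe sets of a gene averaged, the median of all members was -0.01, the same as that of all genes, with 24 of 47 lower, so the excess of lower members as a whole was lost, and the XBP1/ATF6 arm had 11 of 18 lower and ER-associated degradation 3 of 6. Without _s_at or _x_at probe sets 2 of 4 genes of ER-associated degradation were lower (median 0.01), and the further folding genes had -0.03. With the threshold at the 75th percentile 0 members were 1.5-fold lower, since CHAC1 falls below it. For single genes the limit was 0.27, the pooled SD between probe sets for all genes. Most member differences were smaller, so few changes could pass it. Apart from poly-A scaling, only ASNS (-0.37 once both suffixes were left out) and SEC61B (0.23 with averaging) did. Genes within the limit also depended on the choice of probe sets. With averaging XBP1 had -0.04, ERN1 -0.05, CANX 0.02 and ATF3 0.12, whereas PDIA4 became lower, at -0.18. Leaving out both suffixes gave -0.06 for DNAJB9 and -0.31 for PDIA4.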
